A study of Mus musculus with 8 samples.

Results

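The 9 genes described here act in retinoid metabolism and retinoic acid sensing in the skin. They are Stra6, Dhrs9, Aldh1a3, Crabp1, Crabp2, Cyp26b1, Rara, Rarg and Rxra. They were taken by symbol from a table of read counts of 27179 genes in mouse epidermal cells, and each matched 1 row. All 9 passed the expression filter that kept 17702 genes for testing. Bulk RNA was sequenced from epidermal cells of 4 aged and 4 adult C57BL/6J mice (4 mice per condition in the methods).

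The labels give the aged mice an age of 73 weeks and the adult mice 17 to 25 weeks. By the labels all 8 mice received control IgG1 antibody into the peritoneum for 12 weeks, at 210 µg in 100 µl and 3 injections a week. In the methods such injections are described for ageing mice only. They begin there at 73 weeks of age, samples are taken after 12 weeks, and aged mice are given as older than 73 weeks. The 73 weeks of the labels can thus be the age at the first injection, but the labels do not say so. The exact age at sampling and the treatment of either group are therefore not settled here. If the aged mice alone received the antibody, its effect and that of age cannot be told apart.

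The libraries held 75027694 to 90140102 counts, and 1 count corresponded to 0.0105 to 0.0140 CPM (counts scaled to a common library size with TMM factors). The basal keratins Krt5 and Krt14 were high in every library (Krt5 at 1861 CPM or more). Adult libraries 3 and 4 stood apart from the other 6. On the first principal component, which carried 45.2% of the variance, they lay at 75.8 and 52.2, against -36.2 to -6.25 for the rest. Their summed level of 7 basal keratinocyte markers was 7990 and 8107 CPM, against 11678 to 16921 CPM elsewhere, and their summed level of 18 hair shaft and inner sheath keratins and regulators was 579 and 1163 CPM, against 101 to 491 CPM elsewhere. For results whose sign or size rests on these 2 libraries, the value without them is also given. In bulk samples, fewer cells of a type and less RNA per cell cannot be told apart.

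Retinol, the circulating form of vitamin A, enters cells with the help of membrane receptors for its carrier protein and is stored as an ester or oxidised, first to retinal and then to retinoic acid. Retinoic acid is bound by small cytosolic proteins, broken down by cytochromes of the Cyp26 family, and sensed in the nucleus by retinoic acid receptors (RARs) that bind DNA together with a retinoid X receptor (RXR). In the epidermis this pathway is known to influence keratinocyte growth and differentiation, the hair cycle and the sebaceous gland.

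None of the 9 genes passed the test between aged and adult cells at the thresholds used here, a Benjamini-Hochberg adjusted p under 0.1 and a log2 fold change beyond 0.32 either way in edgeR's quasi-likelihood test. Across all tested genes 0.113% were called, 0.0282% as higher and 0.0847% as lower in aged cells. DESeq2 called 0 of the 9, against 1.07% of all genes, and limma-voom also called 0. With replicates 1 and 2 set against 3 and 4 as a 2-level batch, 0 of the 9 were called by edgeR, against 0.322% of all genes, and 0 by DESeq2, against 4.24%. edgeR also called 0 of the 9 with the replicate number as a block, against 0.0169% of all genes, and without adult libraries 3 and 4, against 0.0549%. At an unadjusted p under 0.05 edgeR gave 1 of the 9, Stra6, against 5.99% of all genes. The log2 fold change was above 0 for 3 members and below 0 for 6, with a median of -0.12. Over all tested genes the median was 0.01, and 52.1% of the genes lay above 0. Without adult libraries 3 and 4 the median of the 9 was 0.11.

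**Figure D1:**
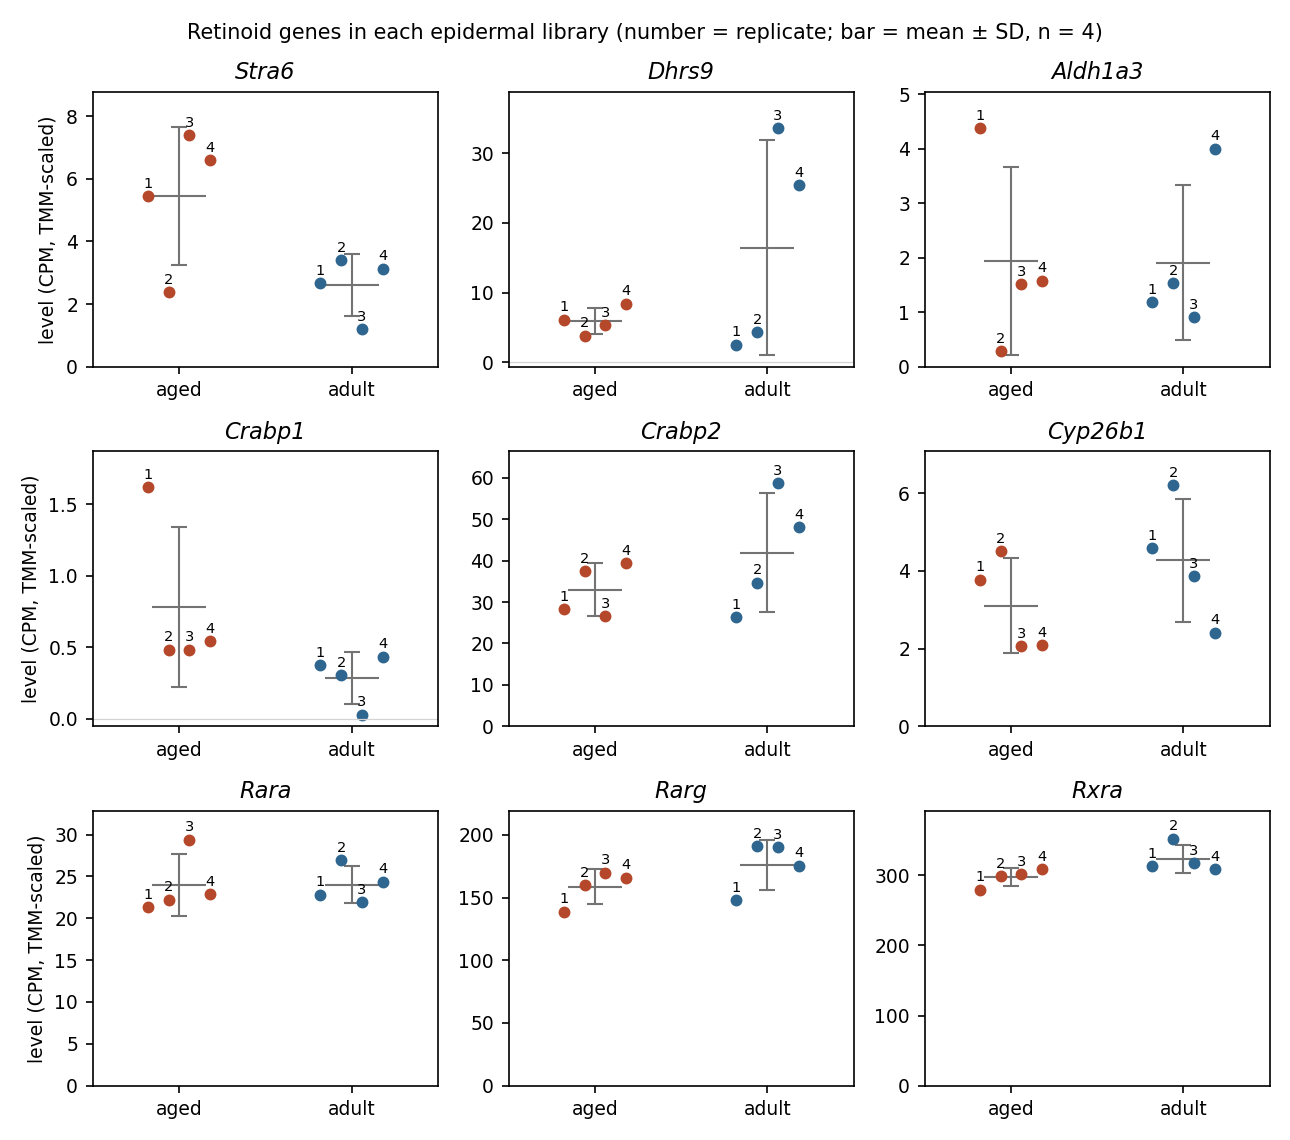
Level of each of the 9 genes in CPM (TMM-scaled) in the 4 aged libraries (left) and the 4 adult libraries (right). Points are single libraries with their replicate number and bars are the mean ± SD. Dhrs9 is high in adult 3 and 4 alone, Crabp1 is the gene whose groups do not overlap, and the 3 receptors vary least.

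Per kilobase of exon, which allows genes of different length to be compared, Rxra was highest at 54.4 ± 2.29 CPM per kb in aged and 59.1 ± 3.65 in adult cells (SD, n = 4 each), followed by Rarg at 37.2 ± 3.25 in aged and 41.3 ± 4.72 in adult cells and by Crabp2 at 24.9 ± 4.86 in aged and 31.8 ± 10.9 in adult cells. Rara had 5.49 ± 0.84 in aged and 5.50 ± 0.50 in adult cells. The means of the other 5, from Dhrs9 through Stra6, Cyp26b1 and Crabp1 to Aldh1a3, lay between 0.356 and 3.85 CPM per kb. Over the 8 libraries, the range of Rxra did not overlap that of Rarg, and the range of Crabp2 did not overlap that of Rara. Every other pair of neighbours in this order overlapped, so their order is not settled by these libraries.

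**Figure D2:**
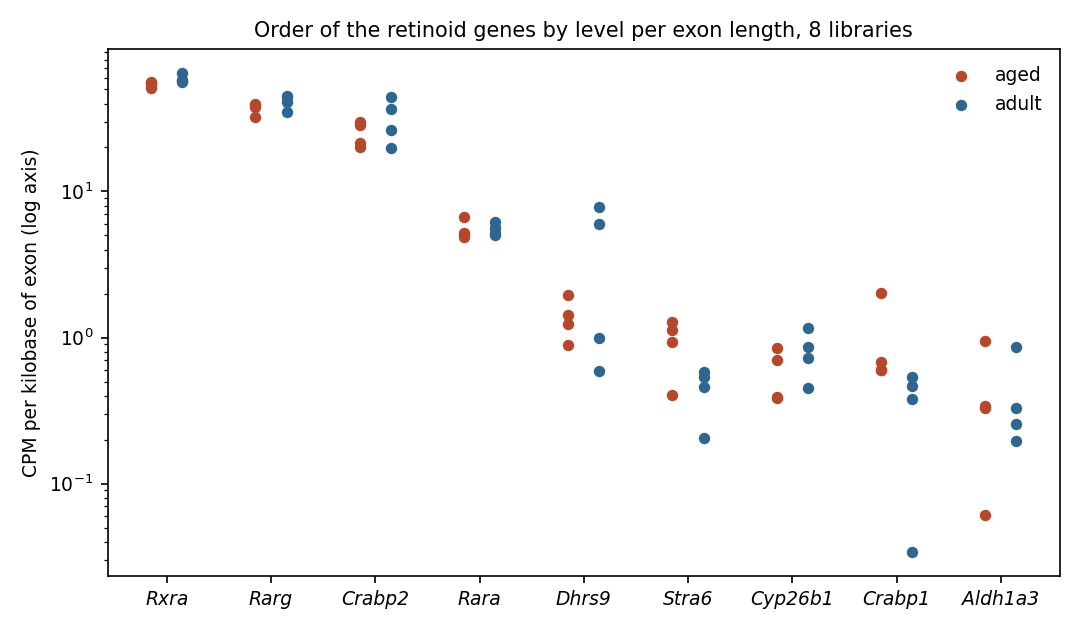
CPM per kilobase of exon (log axis) of the 9 genes, ordered by their mean over 8 libraries, with aged libraries in red to the left and adult libraries in blue to the right of each gene. The receptors Rxra and Rarg and the binding protein Crabp2 all reach 19.9 CPM per kb or more in every library, Rara lies near 5.49, and the other 5 genes spread over 0.0342 to 7.86.

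Stra6 (Entrez 20897, chromosome 9, 58063793 to 58154004 on mm10) encodes the membrane receptor that takes up retinol from retinol-binding protein. It had 5.44, 2.37, 7.40 and 6.59 CPM in aged libraries 1 to 4, against 2.67, 3.40, 1.19 and 3.14 CPM in adult libraries 1 to 4. Aged library 2 lay within the adult range and the other 3 aged libraries lay above every adult one. Aged cells averaged 5.45 ± 2.20 CPM and adult cells 2.60 ± 0.99 CPM (SD, n = 4 each), a log2 fold change of 1.07 ± 0.40 (SE) with a 95% interval of 0.17 to 1.96. The unadjusted p was 0.0246 and the adjusted p over all genes 0.775 by edgeR, so the difference did not pass. Without adult libraries 3 and 4 the log2 fold change was 0.84 ± 0.40, and within replicates 1 and 2 it was 0.37 ± 0.40. The span of Stra6 overlaps Ccdc33, a gene on the opposite strand that had 23, 13, 30 and 10 counts in aged libraries and 7, 7, 0 and 0 counts in adult libraries. With 1794 counts in aged and 846 in adult libraries, Stra6 far exceeded this partner. A read over annotated exons of both genes counted for each, so such shared reads cannot exceed the Ccdc33 counts. No source used here gives the strand setting of the counting, so other reads of the pair cannot be told apart. Gm16131, on the same strand, also overlaps the span of Stra6, and its reads were not separated.

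Retinol that has entered a cell can be oxidised to retinal by dehydrogenases such as Dhrs9 (Entrez 241452, chromosome 2, 69380462 to 69403086). Dhrs9 had 6.14, 3.80, 5.31 and 8.41 CPM in aged libraries 1 to 4, against 2.53, 4.27, 33.6 and 25.4 CPM in adult libraries 1 to 4. The 4 aged libraries lay between the low adult pair, 1 and 2, and the high adult pair, 3 and 4, except aged 2, which fell within the low pair. Aged cells averaged 5.91 ± 1.93 CPM and adult cells 16.5 ± 15.5 CPM (SD, n = 4 each). The log2 fold change was -1.48 ± 0.72, with an interval of -3.11 to 0.15 and an adjusted p of 0.836 by edgeR. Without adult 3 and 4 the sign turned, to 0.80 ± 0.34 (unadjusted p = 0.0422, adjusted p = 0.99986, edgeR). Within replicates 1 and 2 the difference was 0.55 ± 0.34. Within replicates 3 and 4 it was -2.12 ± 0.24 (adjusted p = 0.0067, edgeR), past the threshold. That smaller fit called 12% of all genes and 3 of the 9, Dhrs9, Stra6 (1.67 ± 0.41, adjusted p = 0.0555) and Crabp2 (-0.71 ± 0.20, adjusted p = 0.0878). The test of whether the age difference depends on the replicate pair gave -2.65 ± 0.48 for Dhrs9 (adjusted p = 0.0897, edgeR), the 1 member called among 9, against 0.633% of all genes. The split into pairs came from earlier results of these same libraries and not from the labels, so this p is not independent evidence.

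**Figure D3:**
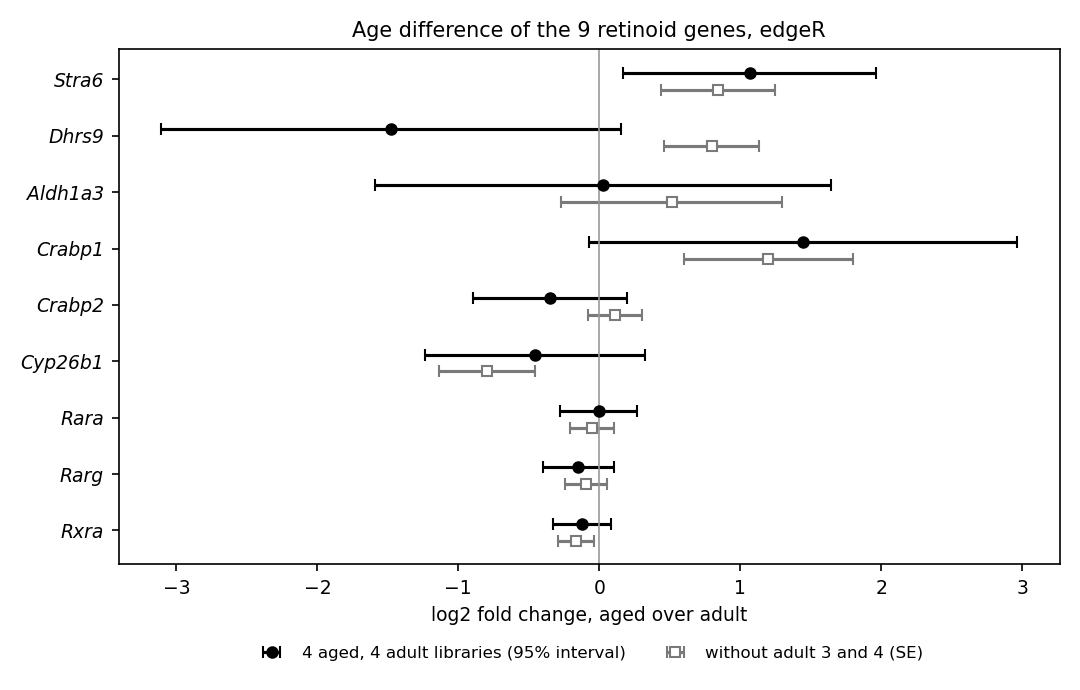
Log2 fold change of aged over adult for the 9 genes. Black circles use all 8 libraries, with 95% intervals, and open squares leave out adult libraries 3 and 4, with standard errors. Stra6 alone has an interval that lies off 0, Dhrs9 changes side between the fits (-1.48 and 0.80), and the receptors have the narrowest intervals.

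The bases before the start of Dhrs9 hold the letters TGACCT, the reverse complement of the half-site AGGTCA that RAR and RXR bind in pairs. It is shown because Dhrs9 is the member whose age difference depended on the replicate pair. In the RefSeq sequence of GRCm38.p6, the 160 bases up to the start on the plus strand, chr2:69380302-69380461, read as follows, with the half-site, 88 to 83 bases before the start, in capitals.
Dhrs9: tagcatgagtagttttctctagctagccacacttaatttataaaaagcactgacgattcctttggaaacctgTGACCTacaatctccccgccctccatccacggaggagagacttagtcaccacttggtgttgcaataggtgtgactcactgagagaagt
On either strand, AGGTCA lies in 16.3% of all 32851 RefSeq windows from 250 bases before to 50 bases after a start, so its presence here is a description and no evidence of binding. RefSeq windows were matched for 7 of the 9 genes, with 15 windows, of which 4 held this half-site, 1 each for Dhrs9, Rara, Rarg and Rxra.

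Aldh1a3 (Entrez 56847, chromosome 7, 66390892 to 66427477) encodes a dehydrogenase that turns retinal into retinoic acid. It had 4.38, 0.28, 1.51 and 1.58 CPM in aged libraries 1 to 4, against 1.18, 1.53, 0.90 and 4.003 CPM in adult libraries 1 to 4. Each group held 1 high library, aged 1 and adult 4, and the groups overlapped throughout. The log2 fold change was 0.03 ± 0.72 (adjusted p = 0.997, edgeR), with an interval of -1.59 to 1.65 or fold changes of 0.332 to 3.13. Without adult 3 and 4 it was 0.51 ± 0.78. The summed level of 10 dermal fibroblast markers was 62.7, 14.2, 19.8 and 22.9 CPM in aged libraries and 22.7, 20.3, 22.6 and 53.9 CPM in adult libraries. This sum was thus highest in the same 2 libraries as Aldh1a3 and lowest in aged 2, where Aldh1a3 was lowest too. Of the 9 tested markers of the list, 7 were highest in aged 1 and adult 4, and 5 of these were also lowest in aged 2, as for the collagen gene Col1a1, at 6.11, 0.26, 1.74 and 2.34 CPM in aged and 1.63, 1.54, 2.80 and 7.54 CPM in adult libraries. Pdgfrb and Fbln1 did not follow, with 0.77 and 8.49 CPM in aged 2 against 0.24 and 6.86 CPM in adult 4, and Twist2 had 4 counts in all. The pattern was not particular to fibroblast markers. The summed level of 7 endothelial markers was also highest in aged 1 and adult 4 and lowest in aged 2. The same held for single hair shaft keratins such as Krt28, Krt35 and Krt73, although the hair shaft sum was highest in adult 3 and 4. The part of RNA from fibroblasts or from other cell types in the Aldh1a3 values was not tested.

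The small cytosolic proteins Crabp1 and Crabp2 bind retinoic acid. Crabp2 is known to carry it to the receptors, and Crabp1 is linked to its breakdown. Crabp1 (Entrez 12903, chromosome 9, 54764748 to 54773110) was scarce. It had 140, 46, 36 and 45 counts in aged libraries 1 to 4, against 33, 27, 2 and 31 counts in adult libraries 1 to 4, or 1.62, 0.48, 0.48 and 0.54 CPM in aged and 0.37, 0.31, 0.03 and 0.43 CPM in adult libraries. All 4 aged values lay above all 4 adult values, the only member of which this held, against 3.54% of all tested genes whose groups did not overlap in either direction. The log2 fold change was 1.45 ± 0.67 with an interval of -0.07 to 2.96 (unadjusted p = 0.0595, adjusted p = 0.830, edgeR), and 1.20 ± 0.60 without adult 3 and 4. Aged 1 held 140 of the 267 aged counts, and without it the difference was 0.82 ± 0.63. Aged 1 also had the highest fibroblast sum, 62.7 CPM, and the highest dermal papilla sum, 31.0 CPM, against 17.6 to 26.5 CPM in the other aged libraries and 15.5 to 26.5 CPM in adult ones. Its immune and endothelial sums, 432 and 4.80 CPM, were the highest too. Of the tested dermal papilla markers Corin and Wif1 were highest in aged 1, but Rspo3, Hhip and Alx4 were highest elsewhere. Adult 4 had a fibroblast sum of 53.9 CPM with Crabp1 at only 0.43 CPM. The part of dermal RNA or of other cell types in the Crabp1 values was not tested.

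Crabp2 (Entrez 12904, chromosome 3, 87948693 to 87953372) was among the abundant members. It had 28.3, 37.4, 26.7 and 39.5 CPM in aged libraries 1 to 4, against 26.3, 34.7, 58.7 and 48.1 CPM in adult libraries 1 to 4. Adult 3 and 4 were the highest of the 8, as for Dhrs9, and the aged libraries overlapped adult 1 and 2. Aged cells averaged 32.9 ± 6.42 CPM and adult cells 42.0 ± 14.3 CPM (SD, n = 4 each), a log2 fold change of -0.35 ± 0.24 (adjusted p = 0.850, edgeR), which became 0.11 ± 0.19 without adult 3 and 4. Over the 8 libraries the log2 levels of Crabp2 and Dhrs9 had a Pearson r of 0.86, a description that rests on adult 3 and 4.

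Cyp26b1 (Entrez 232174, chromosome 6, 84571414 to 84593908) encodes a cytochrome that breaks down retinoic acid. It had 3.77, 4.50, 2.06 and 2.09 CPM in aged libraries 1 to 4, against 4.58, 6.21, 3.86 and 2.41 CPM in adult libraries 1 to 4. Each aged library lay below the adult library of the same number, as for Rarg below, but the groups overlapped. What the numbers mark is not stated, so this is no paired comparison. The log2 fold change was -0.46 ± 0.35 with an interval of -1.24 to 0.32 (adjusted p = 0.855, edgeR). It was -0.79 ± 0.34 without adult 3 and 4 (unadjusted p = 0.0444, adjusted p = 0.99986, edgeR), and -0.22 ± 0.35 without adult 2, which had the highest level. The other 2 members of its family, Cyp26a1 and Cyp26c1, had 4 and 22 counts in all 8 libraries and were not tested.

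The receptors were the most even members. Rxra (Entrez 20181, chromosome 2, 27676445 to 27763319), the retinoid X receptor that is the usual partner in skin, had 280, 298, 302 and 309 CPM in aged libraries 1 to 4, against 313, 352, 318 and 309 CPM in adult libraries 1 to 4. Its log2 fold change was -0.12 ± 0.09 with an interval of -0.33 to 0.09 (adjusted p = 0.855, edgeR). Rarg (Entrez 19411, chromosome 15, 102234938 to 102257522), the main retinoic acid receptor of the epidermis, had 139, 160, 170 and 166 CPM in aged libraries, against 148, 191, 190 and 176 CPM in adult libraries. Its log2 fold change was -0.15 ± 0.11 with an interval of -0.40 to 0.10 (adjusted p = 0.853, edgeR). Rara (Entrez 19401, chromosome 11, 98927800 to 98974942) had 21.3, 22.2, 29.4 and 22.9 CPM in aged libraries, against 22.8, 26.9, 21.9 and 24.4 CPM in adult libraries, a log2 fold change of -0.003 ± 0.12 with an interval of -0.28 to 0.27 (adjusted p = 0.997, edgeR). In fold terms the intervals ran from 0.798 to 1.06 for Rxra, from 0.756 to 1.07 for Rarg and from 0.826 to 1.21 for Rara.

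The members were set beside 85 further genes of the pathway, in 9 lists, of which 71 were tested. None was called by edgeR, at the same background of 0.113%, or by DESeq2 without a batch. At an unadjusted p under 0.05 there were 2, Lrat and Aldh1a2, both with a log2 fold change below 0, against 3.7% of all genes lower at that level. The log2 fold change was above 0 for 23 and below 0 for 48, with a median of -0.07 that became 0.02 without adult 3 and 4.

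Lrat, which esterifies retinol for storage, was the pathway gene furthest from 0. It had 5.06, 0.35, 4.76 and 4.94 CPM in aged libraries 1 to 4, against 0.93, 3.95, 48.5 and 62.8 CPM in adult libraries 1 to 4. Adult 3 and 4 lay far above every other library, and the remaining adult libraries lay within the aged range. Its log2 fold change was -2.95 ± 1.19 (adjusted p = 0.805, edgeR), and 0.63 without adult 3 and 4. Aldh1a2, a dehydrogenase of the same kind as Aldh1a3, is named after its values were seen. It had 0.31, 0.08, 0.17 and 0.30 CPM in aged libraries, against 0.10, 0.25, 4.80 and 1.11 CPM in adult libraries, a difference of -2.83 ± 1.06 (adjusted p = 0.775, edgeR) that became 0.30 without adult 3 and 4. Dhrs9, Lrat and Aldh1a2 thus shared their high libraries.

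**Figure D4:**
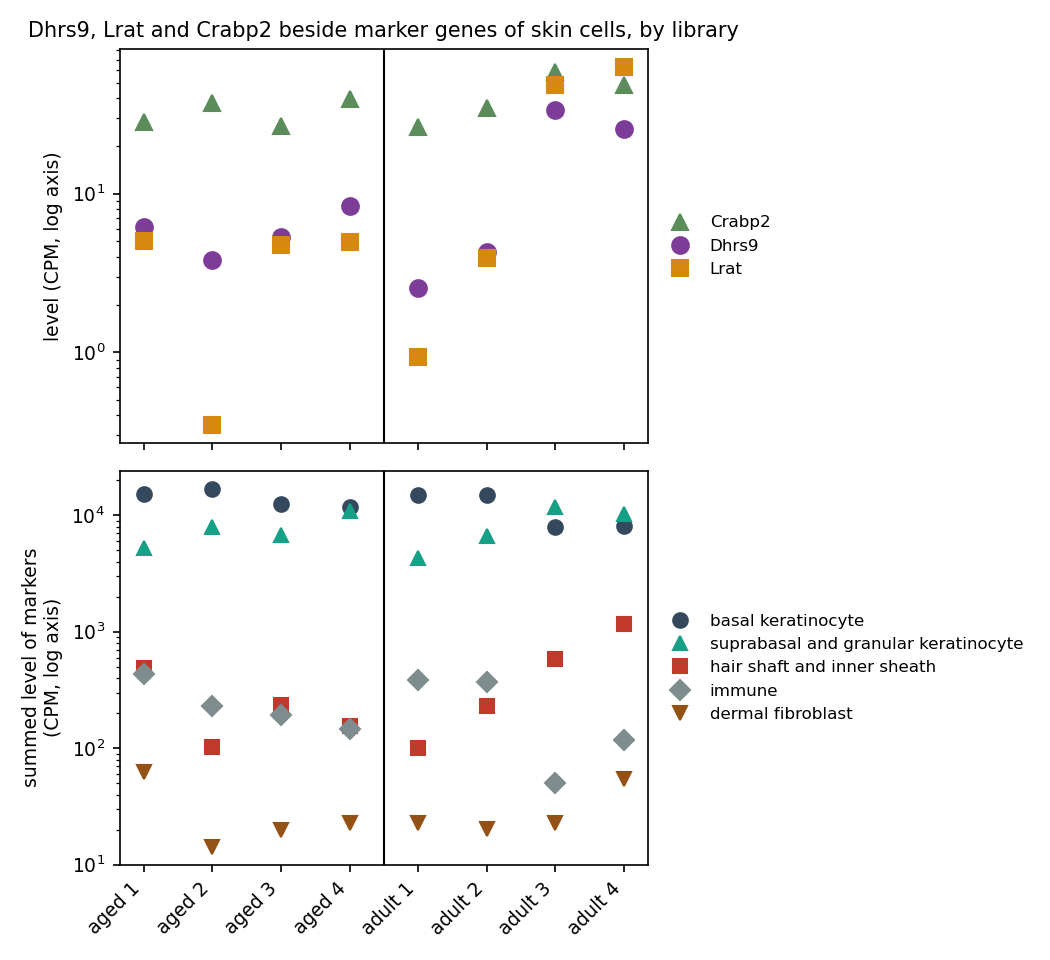
Top, level of Crabp2, Dhrs9 and Lrat in each library in CPM (log axis), and bottom, summed level of 5 marker lists in CPM (log axis), with aged libraries left of the line and adult libraries right of it. In adult 3 and 4, Dhrs9 (33.6 and 25.4) and Lrat (48.5 and 62.8) are highest, the basal keratinocyte sum is lowest and the hair shaft sum is highest.

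In adult 3 and 4, where these genes were high, the sums of several marker lists also lay towards one end of their range. The summed level of 7 suprabasal and granular keratinocyte markers was 11709 and 10283 CPM there, against 4337 to 10800 CPM in the other 6 libraries. That of 10 immune markers was 50.6 and 117 CPM, against 147 to 432 CPM. Cd74, H2-Aa, H2-Ab1, Cd207, Adgre1 and Csf1r were lowest in both adult 3 and 4. Ptprc, Cd3e, Cd3g and Trdc were lowest in adult 3, but in adult 4 they lay within the range of the other 6 libraries. Cd3g, for example, was at 12.8 CPM in adult 4, against 10.4 to 21.3 CPM in those 6. The sum of 12 hair follicle stem cell and outer sheath markers was 3156 and 3330 CPM there, against 1767 to 2901 CPM elsewhere. Its largest parts there were Krt17 (1568 and 1393 CPM) and Krt79 (983 and 1295 CPM), both highest in adult 3 and 4. Lhx2, Sox9, Tcf7l1 and Fgf18 also averaged more in adult 3 and 4 than in adult 1 and 2. Lgr6 (15.4 and 26.5 CPM) and Postn (173 and 197 CPM) were instead lowest there. Cd34, Lgr5, Nfatc1 and Lrig1 averaged less there than in adult 1 and 2. The sum of these 12 also separated the ages, with 1767 to 2367 CPM in aged and 2849 to 3330 CPM in adult libraries. Most of its single markers did not: 3 of the 12 had groups that did not overlap, against 3.54% of all tested genes. The log2 fold change was below 0 for 9 and above 0 for 3 (Lgr5, Lgr6 and Postn), and none was called by edgeR. The hair shaft sum did not follow Dhrs9 in every library. In aged 1 the hair shaft sum was 491 CPM, near the 579 CPM of adult 3, while Dhrs9 was at 6.14 CPM in aged 1 and at 33.6 CPM in adult 3. The part of cell composition in the Dhrs9, Lrat, Aldh1a2 and Crabp2 values was not tested.

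Of the dehydrogenases that interconvert retinol and retinal, 17 were tested and 16 lay below 0, with a median of -0.16 and none called. The largest differences among those with a mean of at least 1 CPM were -0.21 ± 0.16 for Sdr16c6, -0.18 ± 0.16 for Rdh10 and -0.18 ± 0.22 for Rdh12. Without adult 3 and 4 these were -0.01, 0.05 and 0.26, and the median of the list was 0.05. Several of these genes (Rdh1, Rdh9, Rdh16, Rdh16f2 and Rdh19) are close copies of one another whose shared reads were not counted, so their single values are uncertain. Among the other retinal dehydrogenases Aldh1a1 differed by 0.48 ± 0.30 and its close copy Aldh1a7 by -0.14 ± 0.16, or by 0.14 and -0.06 without adult 3 and 4. Among uptake and storage genes the scavenger receptors Cd36 and Scarb1 differed by 0.73 ± 0.41 and -0.45 ± 0.43, and without adult 3 and 4 by 0.66 ± 0.51 and 0.20 ± 0.46. Fabp5, which can hand retinoic acid to another nuclear receptor, Ppard, differed by -0.45 ± 0.32. Like Dhrs9 and Lrat it was highest in adult 3 and 4, at 250.05 and 253 CPM, against 97.6 to 195 CPM in aged libraries and 104 and 130 CPM in adult 1 and 2, and without adult 3 and 4 its sign turned, to 0.20 ± 0.26. The hydroxylase Cyp2s1 differed by -0.11 ± 0.11, or by -0.20 ± 0.13 without them.

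None of the remaining receptors passed the test either. Rarb differed by 0.17 ± 0.39, Rxrb by -0.06 ± 0.08 and Rxrg by -0.05 ± 0.24, and without adult 3 and 4 by 0.47, -0.10 and 0.20. Among the other partners of RXR, 10 were tested, 5 on either side of 0, and the largest differences were those of the orphan receptors Nr4a1 (0.89 ± 0.70) and Nr4a2 (0.85 ± 0.60) and of the lipid sensor Pparg (0.40 ± 0.43). Without adult 3 and 4 these fitted values were 0.16, 0.17 and 0.07, and the median of the list was -0.07 in place of 0.03. Of 14 corepressors and coactivators 12 lay below 0, with a median of -0.06, and the largest differences were -0.21 ± 0.13 for Kat2b, -0.18 ± 0.14 for Nrip1 and -0.17 ± 0.12 for Ep300. Without adult 3 and 4 the first pair turned sign, to 0.05 each, and Ep300 was at -0.17.

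**Figure D5:**
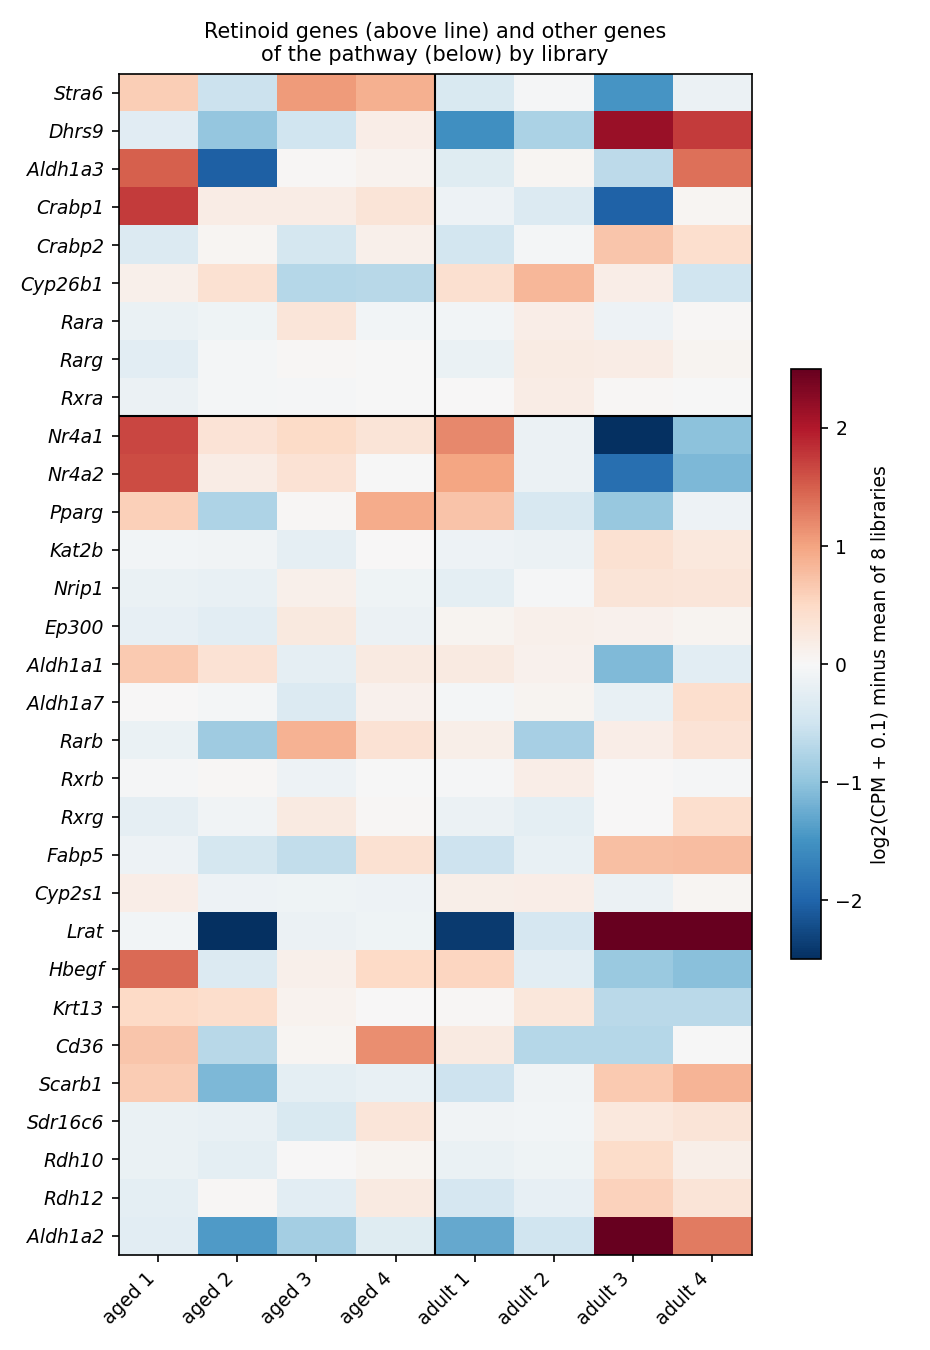
Deviation of log2(CPM + 0.1) from its mean over 8 libraries for the 9 genes (above the line) and for further genes of the pathway (below it), with aged libraries left of the vertical line and adult libraries right of it. Colours end at 2.5 on either side. The deep red cells of Dhrs9, Lrat and Aldh1a2 lie in adult 3 and 4, and the rows of Rara, Rarg, Rxra and Rxrb are nearly blank.

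Genes known to respond to retinoic acid were examined as a further readout of the pathway. Of 15 tested, 9 lay above and 6 below 0, with a median of 0.13 and none called. Apart from Lrat the largest differences were those of the growth factor gene Hbegf (0.86 ± 0.44) and of Krt13, a keratin of internal lining epithelia (0.49 ± 0.25). DESeq2 with the 2-level batch called 1 of the 15, Krt13, at 0.52 ± 0.15 (adjusted p = 0.0208), against 4.24% of all genes, whereas edgeR with the same batch did not (0.53 ± 0.14, adjusted p = 0.247). Without adult 3 and 4, Krt13 was at 0.13 ± 0.21 and Hbegf at 0.39 ± 0.44, and the median of the list was 0.06. The genes Rarb and Cyp26a1 are the textbook targets, and their promoters are shown because they carry the element through which RAR and RXR act, a direct repeat of half-sites with 5 bases between them, in capitals below. A half-site was taken as AGGTCA or one of its variants, which were GGGTCA, also AGTTCA, and finally GGTTCA. The sequences are those of RefSeq on GRCm38.p6, 110 bases up to the start, for Rarb on the minus strand at chr14:16575477-16575586 and for Cyp26a1 on the plus strand at chr19:37697698-37697807.
Rarb: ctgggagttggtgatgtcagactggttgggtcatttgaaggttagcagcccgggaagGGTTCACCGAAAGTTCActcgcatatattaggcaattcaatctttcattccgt
Cyp26a1: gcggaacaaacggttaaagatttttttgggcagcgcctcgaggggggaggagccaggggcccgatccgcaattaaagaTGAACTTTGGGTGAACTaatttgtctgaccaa
In Cyp26a1 the repeat lies on the other strand. With either strand searched, this repeat was present in 0.0974% of the 32851 windows, in 2 of the 63 further pathway genes with a window and in none of the 7 members with one. The same repeat with 1 or 2 bases between the half-sites, in 0.222% and 0.268% of windows, was also found in no member. Only these windows were searched, so sites elsewhere in the genes are not covered. The measured levels of both targets were low. Rarb had 3.07, 1.81, 6.38 and 4.43 CPM in aged libraries 1 to 4, against 3.79, 1.88, 3.88 and 4.41 CPM in adult libraries 1 to 4, and Cyp26a1 had 2 counts in all aged and 2 in all adult libraries, too few to compare.

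As a description of which genes varied alongside each member, the Pearson correlation of log2 CPM over the 8 libraries was taken for all tested genes with a mean of at least 1 CPM. The closest was Akr1c19 for Stra6 (0.99), Hunk for Aldh1a3 (0.99), Prkar2b for Crabp1 (0.99), Blmh for Crabp2 (0.99), Sox4 for Cyp26b1 (0.96), Plec for Rara (0.94), Nrd1 for Rarg (0.99) and Tapbp for Rxra (0.95). For Dhrs9 the closest gene with a symbol was Prss12 (0.98), next to 2 identifiers without one. With 8 libraries and so many genes they carry no test.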

How the data were processed

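The authors deposited raw read counts per gene, whole numbers without normalization, under Entrez identifiers. Alignment was to mm10 with STAR 2.5.2b and counting was with featureCounts and its inbuilt annotation, as the labels and methods state. A read over several genes counted for each of them, multi-mapping reads were dropped and duplicates kept. No source used here gives the strand setting. The labels also list mm9 and call the molecule polyA RNA, although the stated kit was for total RNA depleted of ribosomal RNA.

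RefSeq (GRCm38.p6) named 25275 of 27179 identifiers, and GENCODE vM21 gave exon lengths. Counts were tested with edgeR 4.0.16 in R 4.3.3 (TMM scaling, filterByExpr, quasi-likelihood F test), with p adjusted over 17702 genes, in a fit checked on simulated data. CPM are TMM-scaled. SE is the log2 fold change divided by the square root of F. Alternatives used limma 3.58.1, DESeq2 1.42.0, other scalings and filters, and subsets of libraries. The study fitted an experimental batch, but no source used here gives it per sample, so none entered the test, and replicates 1 and 2 against 3 and 4 served as an alternative batch term of 2 levels.

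The members, the gene lists, the split into pairs and the rule for named genes were chosen with earlier results of these data known. The rule names the 9 members, called genes of each pathway list, the 3 genes per list with the largest absolute log2 fold change at a mean of at least 1 CPM, and the closest genes by correlation. Replicate numbers are shared by the groups, and nothing says what they mark. Across genes, deviations from the group means correlated at 0.156, 0.412, 0.205 and 0.206 for same-numbered libraries, each over 0.1. On that ground only, the replicate number served as a block in an alternative fit, and the main test was unpaired. Aged 4 and adult 3, of unlike number, also reached 0.304, so the pairing is uncertain. Replicates of 1 group differed far beyond counting error (chi-square divided by its degrees of freedom, 73.1 to 420).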

Additional observations from a re-analysis of the deposited data

Results flagged for a closer look

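Crabp1 stood at 1.62 CPM in aged library 1, far from the 0.48 to 0.54 CPM of the other aged libraries by Dixon's test. This was the 1 such value among 18 groups of 4 libraries tested, and chance gives about 1 in 20 groups.

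The age difference of Dhrs9 was not the same in the 2 pairs of replicates. The difference between the pairs was -2.65 on the log2 scale by edgeR's interaction test, with 6.14 and 3.80 CPM in aged and 2.53 and 4.27 CPM in adult libraries of replicates 1 and 2, and 5.31 and 8.41 CPM in aged and 33.6 and 25.4 CPM in adult libraries of replicates 3 and 4. The split was known from earlier results of these libraries, and what sets the pairs apart is not stated in the sources used here. The mitochondrial share of counts also differed between the pairs. It was 21.0% and 17.3% in aged 1 and 2 and 17.5% and 18.2% in adult 1 and 2. In aged 3 and 4 it was 24.3% and 25.5%, and in adult 3 and 4 it was 25.3% and 31.1%. Its relation to the Dhrs9 values was not tested.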

How the results depend on the processing

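Across 21 alternatives (20 for Crabp1, which the filter of 1 CPM in 4 libraries removed), Stra6, Crabp1, Cyp26b1, Rarg and Rxra kept the sign of their log2 fold change, and 0 of the 9 were called except with replicates 3 and 4 alone. That fit called 3 members (Stra6 1.67, Dhrs9 -2.12, Crabp2 -0.71), 11 other pathway genes and 2135 genes in all, and gave -0.68 for Aldh1a3 and 0.16 for Rara. DESeq2 with the 2-level batch called 1 other pathway gene, Krt13. Of all genes, 20 of 17702 were called as reported, and the number was 13 with library size alone, 190 with DESeq2, 57 and 751 with the 2-level batch in edgeR and DESeq2, 10 without adult replicates 3 and 4, 0 with replicates 1 and 2 alone, and 6 to 15 with 1 library left out. Dhrs9 turned to 0.80 without adult 3 and 4 and to 0.55 with replicates 1 and 2 alone, and Crabp2 to 0.11 and 0.12 in the same fits. Aldh1a3 and Rara, both near 0, changed sign more often. With 1 library left out Aldh1a3 ranged from -0.76 to 0.68 and Rara from -0.12 to 0.052. Aldh1a3 was -0.30 with limma-voom, and Rara 0.029 with library size alone, 0.015 with upper-quartile scaling and 0.0022 under the 1 CPM filter. With the replicate number as a block, the fit called 3 genes overall and 0 members, changed no member's call, and gave -0.25 for Aldh1a3. The causes of these shifts were not tested. Depth limits Crabp1 most, with 2 counts in adult 3. The p-values weigh each group difference against the spread between 4 mice per group. In the adult group that spread includes the gap between libraries 3 and 4 and the other adult libraries.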
